A study of Rattus norvegicus with 3 samples.

Results

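The replication licensing genes are those whose proteins load the replicative helicase onto DNA before S phase. A list of 10 rat genes was taken: the helicase subunits Mcm2, Mcm3, Mcm4, Mcm5, Mcm6 and Mcm7, the loading factors Orc1, Cdc6 and Cdt1, and the inhibitor geminin (Gmnn). Probes were assigned to them by the RefSeq accession that the array design gives each one, which gave 10 probes for 8 of the 10 genes, among 16745 named probes for 13301 genes. Mcm3 and Mcm5 had no probe named in this way and were not analysed here. All 10 probes were well above background on all 3 arrays by the call of the scanner software, so no member entered only through the cells in which it was high.

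In G1 phase, the origin recognition complex, of which Orc1 is the largest subunit, marks replication origins, and Cdc6 and Cdt1 bring the ring of Mcm2 to Mcm7 to them. The loaded ring stays inactive until S phase kinases start it as the helicase of the replication fork. Geminin binds Cdt1 in S phase and G2 and so keeps origins from being licensed again within the same cycle. Cells that leave the cycle lose much of this machinery, and MCM proteins are for that reason used as markers of cycling cells in tumor tissue.

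The study set 2 sarcoma lines of F344 rats against mesenchymal stem cells (MSCs) of the same strain. COS1NR is an osteosarcoma line and MFH1NR a malignant fibrous histiocytoma line, both from tumors raised with the carcinogen 4-HAQO and both, by the methods, p53-mutated, and the MSCs were grown from femur bone marrow on plastic without sorting, in medium with more serum than that of the lines. Cy3-labeled cRNA of each was hybridized to 1 whole rat genome array, so there was 1 array per cell type, no difference could be tested, and each line stands for itself alone. The age and sex of the rats and the passage of the cells were not given in the sources used here.

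Intensities are the deposited signals of the scanner software in arbitrary units, and the value after ± is the software's own error for that spot, which covers neither cultures nor labeling. Ratios were taken after each array was divided by its 75th percentile, which was 589 in MSCs, 774 for COS1NR and 994 for MFH1NR. A gene with several probes was counted by its brightest one, and 10010 genes with a probe well above background on at least 1 array formed the comparison set. Between 56.6% and 59.7% of spots were well above background. Probes printed at least 5 times had a median SD of 0.0470 to 0.0577 in log2 within an array, while for 1895 genes with 2 probes the log2 ratios to MSCs given by these probes were a median of 0.276 apart in COS1NR and 0.312 apart in MFH1NR. The MSC array was on a different slide from the pair of sarcoma arrays, and in ratios to MSCs the effects of slide and of cell type cannot be told apart. In RNA of a whole culture, fewer cycling cells and less RNA of a gene per cell cannot be told apart either.

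The cultures were checked against defining markers. All 8 measured macrophage markers were well above background in MSCs, against 5 in COS1NR and 4 in MFH1NR, and Ptprc, Itgam and Adgre1 were not well above background in either line. The summed scaled level of these 8 was 87.6 in MSCs, 8.91 for COS1NR and 4.23 for MFH1NR, and their part in the ratios below was not tested. Of 5 MSC markers, 5 were well above background in MSCs, 3 for COS1NR and 4 for MFH1NR, with summed levels of 92.5, 24.4 and 26.7. Of 6 osteoblast markers, 5, 5 and 6 were well above background, with summed levels of 218, 144 and 262. The exception was Sp7, a defining osteoblast factor, which in MSCs and COS1NR did not rise well above background and was at least 3.58-fold higher in MFH1NR than in MSCs. Of the other 5, all were below MSCs in COS1NR and 4 in MFH1NR, down to a log2 ratio of -7.43 for Ibsp, with Spp1 above at 1.29. Of 4 endothelial markers, 2, 2 and 1 were well above background, and Pecam1 and Tek were so on no array. Kdr was lower in both lines and Cdh5 was at 1.41-fold in COS1NR, and the summed levels of Kdr and Cdh5 were 0.564, 0.164 and 0.104.

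The start regions of the licensing genes are shown first, as a feature of the genes that the arrays did not measure. Promoter windows of 300 bases, from 250 before to 50 after the annotated start, were in the RefSeq table (build GRCr8) for 7 of the 10 genes, without Mcm4, Cdc6 and Orc1. They were searched on both strands for 4 forms of the E2F-type motif, TTTCCCGC, TTTGGCGC, TTTCGCGC and TTTGCCGC, which is the kind of site that E2F factors bind in genes of G1 and S phase, and for CCAAT, which the factor NF-Y binds. Capitals in the lines below mark the E2F-type matches, and each line reads 5′ to 3′ on the strand of the gene.

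Mcm2, chr4:122918095-122918148, minus strand: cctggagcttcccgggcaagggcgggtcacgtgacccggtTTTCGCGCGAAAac
Mcm6, chr13:42404440-42404531, minus strand: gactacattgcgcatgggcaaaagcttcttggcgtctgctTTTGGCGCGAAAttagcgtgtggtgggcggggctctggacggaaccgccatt
Mcm7, chr12:22163183-22163270, minus strand: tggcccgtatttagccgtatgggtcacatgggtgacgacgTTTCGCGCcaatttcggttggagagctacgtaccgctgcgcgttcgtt
Cdt1, chr19:67529250-67529269, plus strand: aaaattGCGCGAAAtccgcg
Cdt1, chr19:67529275-67529294, plus strand: tagcttTTTGGCGCcatggc
Gmnn, chr17:40729866-40729883, plus strand: ggtcgtTTTGGCGCggtt

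An E2F-type match was in 7 of 7 windows, those of Mcm3 and Mcm5 included, against 2.25% of all 27457 promoters of this length and 3.91% of the 8163 windows of genes in the comparison set outside the list. In Mcm2, Mcm5 and Mcm6, a match on each strand overlapped to form 1 palindrome-like site, at -14 to -3, -213 to -202 and -139 to -128 from the start. Mcm7 had a match at -52 to -45 that shares its last base with a CCAAT match, and another at -233 to -226. In Cdt1 both matches lay after the start, at 8 to 15 and 33 to 40, and in Gmnn the only one lay at 39 to 46. CCAAT was in 5 of the 7 windows (71.4%), all but those of Mcm2 and Cdt1, against 37.7% of all promoters. A match is a run of letters in the reference and no measurement of binding.

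**Figure D1:**
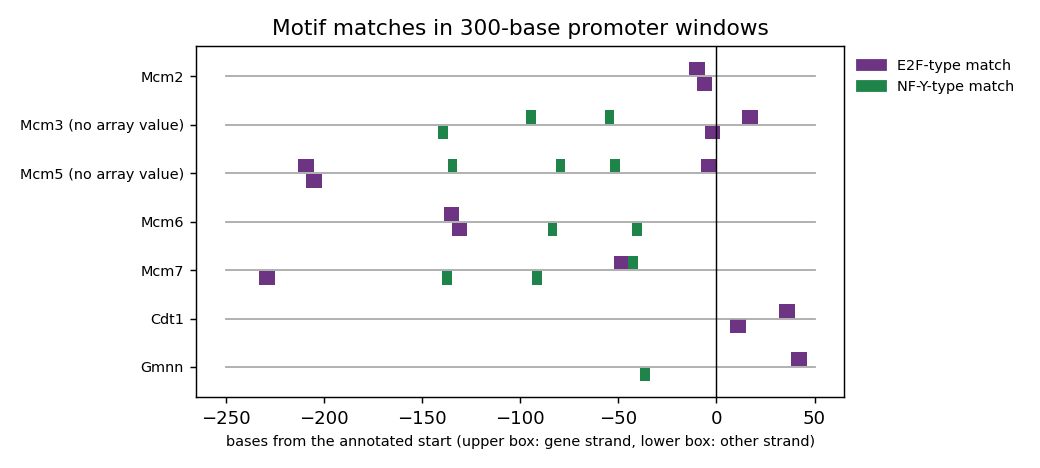
Positions of E2F-type (purple) and NF-Y-type (green) matches in the promoter windows of 7 licensing genes, in bases from the annotated start, with matches on the strand of the gene above each line and those on the other strand below it. All 7 windows hold at least 1 E2F-type match, and those of Mcm2 and Cdt1 hold no NF-Y-type match. The E2F-type matches farthest upstream are in Mcm7 and Mcm5.

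Every measured licensing gene was higher in both sarcoma lines than in MSCs, 8 of 8 where 39.9% of all genes were. In COS1NR, 8 of 8 were at least 2-fold higher, against 21.7% of all 10010 genes, with a median ratio of 4.44 and a median log2 ratio of 2.15 against 0.11 over all genes. In MFH1NR, 7 of 8 were at least 2-fold higher, against 20.8% of all genes, with a median ratio of 5.23 and a median log2 ratio of 2.39 against 0.01. The exception was Mcm7, at 1.75-fold. At least 2-fold higher in both lines were 7 of 8, against 12.2% of all genes, and all of these 7 were at least 3-fold higher in both, against 5.54%. At 3-fold the count depended on the setting. Mcm4 in COS1NR fell under 3-fold with its second probe (2.94-fold), with spike-in scaling (log2 ratio 1.54) and with normexp (1.35). Cdt1 in MFH1NR did so with scaling by reference genes (1.55). Both sets of ratios rest on the same MSC array, so the MSC value of a gene enters both.

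**Figure D2:**
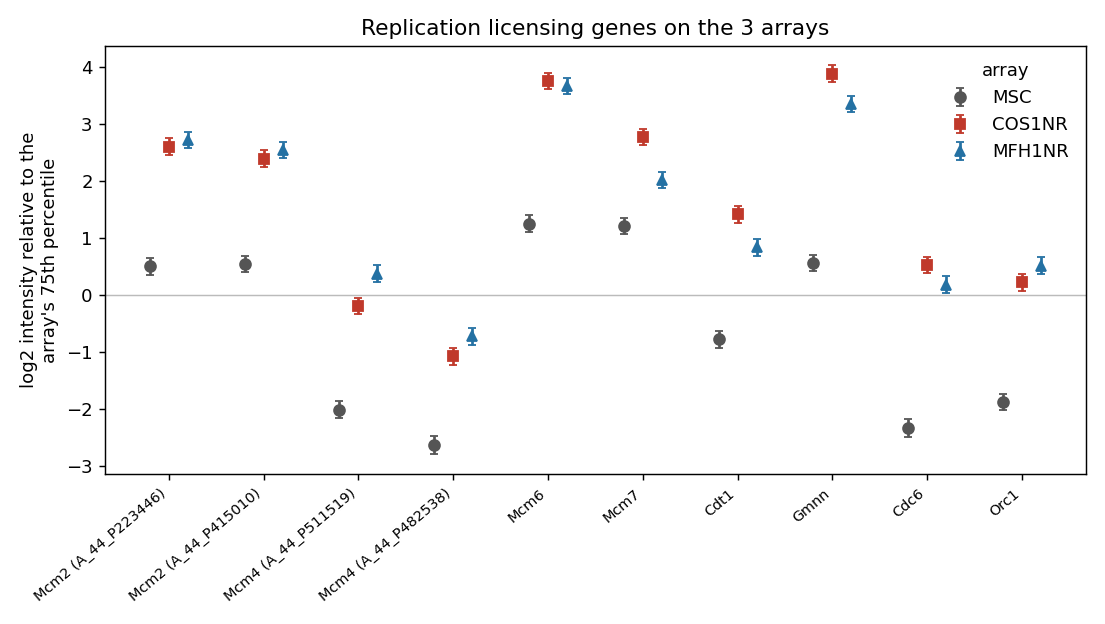
Log2 intensity of the 10 probes of the licensing genes relative to the 75th percentile of each array (grey line at 0), for MSC (circles), COS1NR (squares) and MFH1NR (triangles), with bars for the software's error of the spot. Each probe is lowest in MSC, and the sarcoma lines lie close to each other except for Mcm7, Cdt1, Gmnn and Mcm4. Heights of different probes are not comparable.

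Among the helicase subunits, the intensity of Mcm6 was 1415 ± 142 in MSCs, 10483 ± 1048 for COS1NR and 12675 ± 1268 for MFH1NR. Its ratios to MSCs were 5.64 and 5.31, the highest of the measured subunits in either line, although in MFH1NR Mcm4 lay within the error of it, and the lines differed by -0.09 in log2, less than the error of 0.20 that the spot errors give to a log2 ratio. Mcm2, a target of the S phase kinase Cdc7, was measured by 2 probes. The brighter one gave 836.8 ± 83.8 in MSCs, 4735 ± 474 for COS1NR and 6592 ± 659 for MFH1NR, with ratios of 4.31 and 4.67. The other gave 861.9 ± 86.3, 4083 ± 408 and 5809 ± 581, with ratios of 3.61 and 3.99. The probes of Mcm2 thus differed by 0.26 in the log2 ratio of COS1NR and 0.22 in that of MFH1NR, below the median for 2 probes of a gene, and both put the lines within 0.15 of each other in log2.

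Mcm4, part of the catalytic core of the helicase together with Mcm6 and Mcm7, also had 2 probes. Its brighter probe gave 146.7 ± 15.2 in MSCs, 676.6 ± 68.0 for COS1NR and 1291 ± 129 for MFH1NR. Its other probe gave 95.28, 367.3 ± 37.3 and 601.7 ± 60.5. The ratios were 3.51 and 5.21 by the first and 2.94 and 3.74 by the second, so the probes agreed on the order of the 3 arrays but differed by 0.48 in the log2 ratio of MFH1NR, more than the median for 2 probes of a gene. MFH1NR was above COS1NR by 0.57 in log2 by one probe and by 0.35 by the other.

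In MFH1NR, Mcm7 stood apart from the other measured subunits. Its intensity was 1371 ± 137 in MSCs, 5322 ± 532 for COS1NR and 4044 ± 404 for MFH1NR, so MFH1NR lay between the other arrays. Its ratio was 2.96 in COS1NR and 1.75 in MFH1NR, where the log2 ratio of 0.81 ± 0.20 was the lowest of the 8 genes and 25.3% of all genes had a higher one. In MFH1NR, the log2 ratio of Mcm6 exceeded that of Mcm7 by 1.60, that of Mcm4 by 1.58 and that of Mcm2 by 1.42, while in COS1NR the same differences were 0.93, 0.25 and 0.54. These used the brighter probe of Mcm4. Its other probe had 1.55 in COS1NR, beside 1.56 for Mcm7, and 1.90 in MFH1NR, beside 0.81. With normexp in COS1NR, Mcm7 was at 1.43 and Mcm4 at 1.35. Only 1 probe of Mcm7 was named, so its difference in MFH1NR has no second probe to be read against. For 1 gene in 10 with a second probe, the probes differed by more than 0.986 in the log2 ratio of MFH1NR to MSCs. In MFH1NR, Mcm7 passed 2-fold with unscaled arrays (log2 ratio 1.56), with median scaling (1.02) and with spike-in scaling (1.32), where the share of all genes 2-fold higher was 41.6%, 25.9% and 34.2%, against 20.8% with the 75th percentile.

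Of the loading factors, Cdc6, the ATPase that joins the origin recognition complex in G1, had the highest ratio in COS1NR. It had 117.5 ± 12.6 in MSCs, 1120 ± 112 for COS1NR and 1136 ± 114 for MFH1NR, with ratios of 7.26 and 5.73. Orc1, the origin recognition subunit whose level follows the cell cycle, had 160.9 ± 16.6, 904.7 ± 90.7 and 1425 ± 143, with ratios of 4.28 and 5.25. Cdt1 had 345.4 ± 34.8, 2076 ± 208 and 1783 ± 178, with ratios of 4.58 and 3.06. In MFH1NR the log2 ratio of Cdc6 exceeded that of Orc1 by 0.13, less than the error of either (0.21), and with normexp Orc1 was above Cdc6, at 2.14 against 2.10. For all 3 loading factors the MSC array was the lowest, and the ratios to it were at least 3-fold in both lines, as for 5.54% of all genes. Cdt1 in MFH1NR was close to that threshold and fell under it with scaling by the reference genes (log2 ratio 1.55 against 1.61).

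The inhibitor geminin was higher too, and by more than the factor it binds. Gmnn had 876.0 ± 87.7 in MSCs, 11476 ± 1148 for COS1NR and 10175 ± 1018 for MFH1NR, with ratios of 9.97 and 6.88, the highest of the 8 genes in each line. Only 2.01% of all genes had a higher ratio in COS1NR and 4.24% in MFH1NR. The log2 ratio of Gmnn exceeded that of Cdt1 by 1.12 in COS1NR and by 1.17 in MFH1NR, a difference that stays the same whatever constant an array is divided by. Each of these genes had 1 named probe.

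Between the sarcoma lines, which were on the same slide, no licensing gene was 2-fold apart, where 29.9% of all genes were so in either direction. Of the 7932 genes well above background on all arrays, as the licensing genes were, 21.8% were 2-fold apart. The median log2 ratio of MFH1NR to COS1NR was -0.21, against -0.11 over all genes, with a range from -0.76 for Mcm7 to 0.57 for Mcm4. Higher in MFH1NR were Mcm4, Orc1 and Mcm2, with log2 ratios of 0.57, 0.29 and 0.12. Below 0 were Mcm7, Cdt1, Gmnn, Cdc6 and Mcm6, with -0.76, -0.58, -0.54, -0.34 and -0.09. Against the error of 0.20 from the spots, the lines differed by less for Mcm2 and Mcm6. The signs of Mcm6, Cdc6, Mcm7, Cdt1 and Gmnn depended on the setting, and those of Mcm2, Mcm4 and Orc1 were above 0 in all 13 alternatives. Unscaled arrays had an all-gene median of 0.25, and Mcm6 was at 0.27 and Cdc6 at 0.02, while quantile normalization put Mcm6 at 0.04. Spike-in scaling put the all-gene median at 0.68 and all 8 licensing genes above 0, from 0.03 for Mcm7 to 1.09 for Orc1 and 1.36 for Mcm4, so that 2 of 8 were 2-fold apart where 43.4% of all genes were. The licensing median minus the all-gene median was -0.10 with the 75th percentile, without scaling and with spike-in scaling. These values are equal by construction, since the settings differ by 1 constant per array. The same difference was -0.13 with quantile normalization, -0.19 with signals raised to the background limit, -0.05 with normexp and 0.10 with no filter on dim probes.

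**Figure D3:**
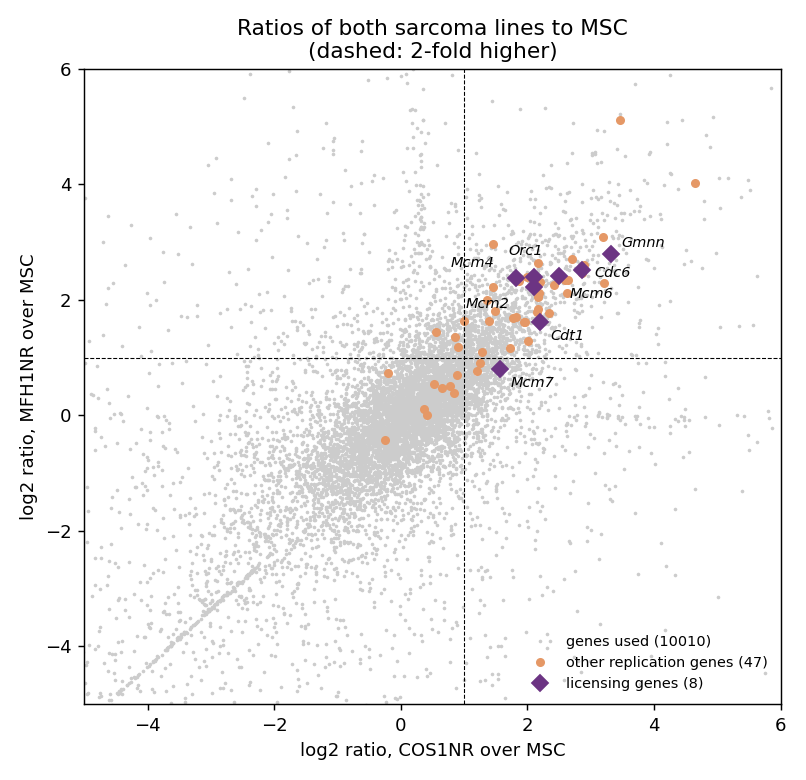
Log2 ratio of COS1NR to MSC (horizontal) against that of MFH1NR to MSC (vertical) for the 10010 genes used (grey), the 47 other replication genes (orange) and the 8 licensing genes (purple), with dashed lines at 2-fold. Of the licensing genes, 7 lie in the upper right beyond both lines and Mcm7 just below the horizontal one. The axes run from -5 to 6 and leave out 639 genes, and both ratios share the MSC array.

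The other genes of origin licensing and replication were taken from 7 lists of 61 genes, of which 47 could be used, 13 had no named probe and 1 was not well above background on any array. At least 2-fold higher in both lines were 32 of the 47, against 12.2% of all genes, and none was 2-fold lower in either line, where 2232 of the 10010 genes were so in COS1NR and 2323 in MFH1NR. Within the origin recognition complex, the subunits differed. Orc6 had ratios of 5.34 and 4.75 in COS1NR and MFH1NR, and Orc5 had 3.85 and 3.05, beside 4.28 and 5.25 for Orc1. Orc2, Orc3 and Orc4 were under 2-fold in both lines, with log2 ratios of 0.65, 0.42 and -0.20 for COS1NR and 0.48, 0.00 and 0.73 for MFH1NR.

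Among relatives of the MCM subunits, Mcm8, which acts in homologous recombination, had ratios of 9.17 and 8.44, against 5.64 and 5.31 for Mcm6. Mcm10, which helps to start the loaded helicase, had 2.57 and 3.99, and Mcmbp, a binding partner of MCM subunits, had 1.72 and 1.41. Of the 8 measured genes that turn the ring into an active helicase, 7 were at least 2-fold higher in both lines, against 12.2% of all genes. Cdc45, which joins the ring together with the GINS complex, had an intensity of 2865 for MSCs, 22820 for COS1NR and 24526 for MFH1NR, and ratios of 6.06 and 5.07. The GINS subunits Gins2, Gins3 and Gins4 had ratios of 4.04, 3.96 and 2.44 for COS1NR and 2.45, 5.28 and 2.13 for MFH1NR, where the MSC intensity of Gins3 was only 27.1. Donson was at 1.87-fold in COS1NR.

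The kinases and cyclins that fire licensed origins were above MSCs in both lines in 5 of 5 cases, against 39.9% of all genes. At least 2-fold higher in both lines were 4 of 5, against 12.2% of all genes. Cyclin A2 (Ccna2) had ratios of 9.24 and 4.91 for COS1NR and MFH1NR, and the S phase kinase Cdc7 had 1.82 and 2.55. Cyclin E2 (Ccne2) had 107 in MSCs, 383 for COS1NR and 1398 for MFH1NR, and was the firing gene that was 2-fold apart between the lines, with a ratio of MFH1NR to COS1NR of 2.84. Of the genes that control licensing through protein breakdown, Fbxo5, an inhibitor of the anaphase-promoting complex that protects geminin and cyclin A from it, had 44.0 in MSCs, 638 for COS1NR and 2574 for MFH1NR, with ratios of 11.0 and 34.6, and was 3.14-fold apart between the lines. The lowest intensity called well above background in MSCs was 17.9. Skp2, a part of a ubiquitin ligase that acts on Cdt1, had 5.09 and 3.41, the scaffold Cul4b had 1.48 and 2.72, its relative Cul4a had 0.846 and 0.739, and Rbx1 had 1.43 and 1.46.

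At the replication fork, 18 of 18 measured genes were above MSCs in both lines, against 39.9% of all genes, and 14 by at least 2-fold, against 12.2%. The median log2 ratio of this list was 1.91 in COS1NR and 1.80 in MFH1NR. Pole2, a subunit of DNA polymerase epsilon, had the highest ratios, 25.0 and 16.2, from an MSC intensity of 30.5, and the sliding clamp Pcna had 2.63 and 3.09. In the E2F family only 3 of 8 genes could be used. E2f1 had ratios of 7.26 and 5.50, while E2f3 and E2f6 were under 2-fold in both lines.

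**Figure D4:**
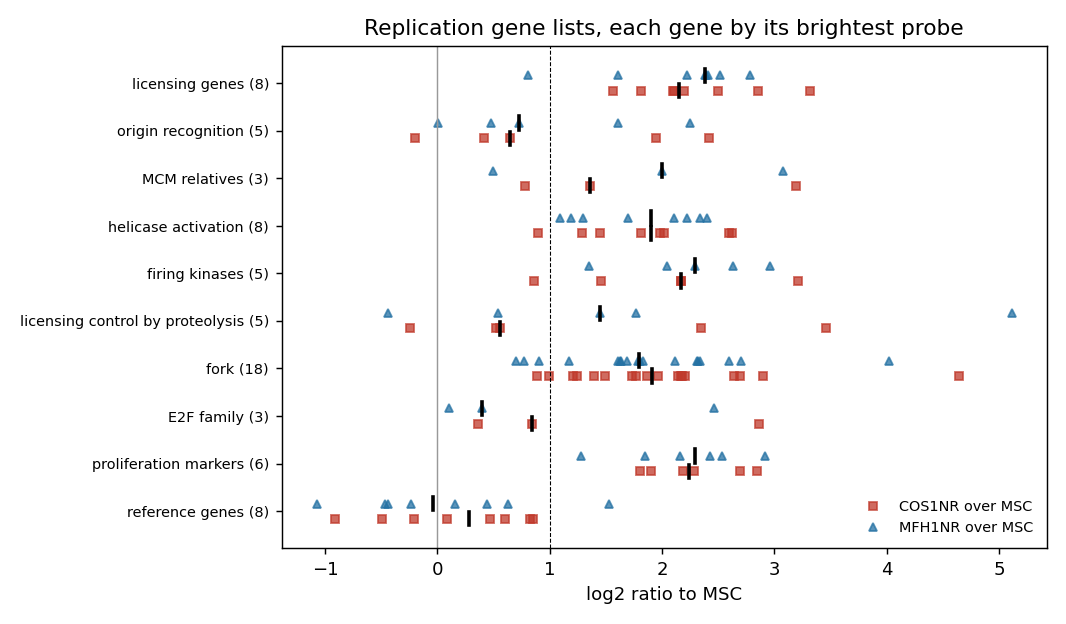
Log2 ratio to MSC of each gene of the replication lists, of the proliferation markers and of 8 reference genes, for COS1NR (squares) and MFH1NR (triangles), with the number of genes used in brackets, a black bar at each median and a dashed line at 2-fold. Licensing genes, firing kinases and proliferation markers have medians above 2 in both lines, origin recognition and E2F genes are split, and reference genes lie around 0.

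Mitotic markers had ratios of about the size of the licensing genes. The 6 measured proliferation markers, Ccnb1, Ccnb2, Cdk1, Aurka, Birc5 and Bub1, which act in mitosis and share no gene with the licensing list, had median log2 ratios of 2.24 in COS1NR and 2.30 in MFH1NR, beside 2.15 and 2.39 for the licensing genes, and 6 of 6 were at least 2-fold higher in both lines, against 12.2% of all genes, with log2 ratios from 1.80 to 2.85 and from 1.28 to 2.92. The 8 reference genes had medians of 0.28 and -0.04 and ranged from -1.08 (Rplp0 in MFH1NR) to 1.53 (Tbp in MFH1NR). Each licensing gene except Mcm7 in MFH1NR lay above the highest reference gene of the same line.

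The genes most like the helicase subunits were sought over the 3 arrays, by the distance of their log2 ratios to MSCs from the median of Mcm2, Mcm4, Mcm6 and Mcm7, which was 1.96 in COS1NR and 2.30 in MFH1NR. Of 7932 genes well above background on all arrays, 119 lay within 0.5 of this point. The nearest were Prim1, the catalytic subunit of primase, at a distance of 0.098, Wee1, a kinase that restrains Cdk1, at 0.098, Zfp472 at 0.102, the GINS subunit Gins3 at 0.103 and Pwwp3a at 0.108. With 3 arrays such nearness describes 2 ratios only.

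The genomic neighbors of the licensing genes were looked up after the ratios were seen. Of the 16 nearest protein-coding genes, 1 on each side in GRCr8, 10 could be used, and they had median log2 ratios of -0.01 in COS1NR and 0.01 in MFH1NR. Of the 10, 1 was at least 2-fold higher in both lines, against 12.2% of all genes, Ube2v2 beside Mcm4, with log2 ratios of 1.34 and 1.76. Prkdc, on the other side of Mcm4, had 0.70 and 1.18. The neighbors of Mcm7 were under 2-fold, Cops6 with 0.38 and 0.68 and Ap4m1 with -0.20 in each line. At least 2-fold lower in both lines were 2 of the 10, against 1465 of the 10010 genes, Podxl2 beside Mcm2 with -1.42 and -6.37 and Piezo1 beside Cdt1 with -2.12 and -2.72.

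**Figure D5:**
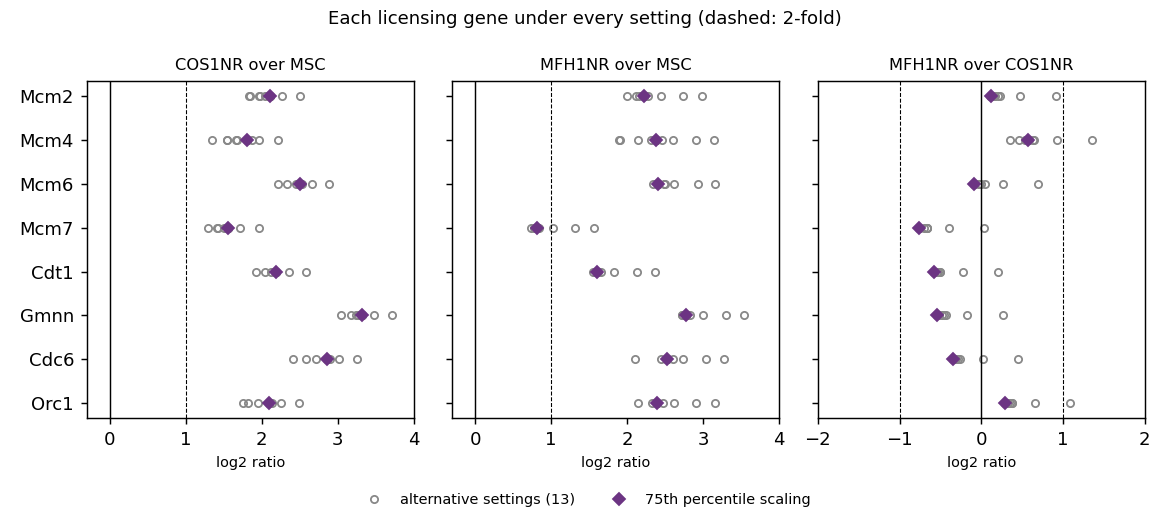
Log2 ratio of each licensing gene in the 3 pairs of arrays, with the value after scaling to the 75th percentile (diamonds) and under 13 alternative settings (open circles), and dashed lines at 2-fold. All values against MSC lie above 0, and in MFH1NR over MSC only those of Mcm7 fall below 2-fold. Between the lines, 5 genes cross 0 under some scaling.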

How the data were processed

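The authors made the deposited intensities with Agilent Feature Extraction (version 10.5.1.1 per the file headers, 9.1 per the labels), which subtracts the background and detrends each array without scaling between arrays. The deposited series table held the same intensities on 45018 of 45018 spots of each array (ratio within 1e-06). Spots that were controls or outliers were left out, spots of a probe were averaged in log2, and each array was scaled to its 75th percentile. Probes were named by RefSeq accession with a GRCr8 gene table, while the array design is annotated on rn4. Log2 ratios were described with a 2-fold threshold, since 1 array per cell type allows no test and the number of arrays limits the precision. The members, lists and thresholds were chosen with earlier results of these data known. The rule for named genes took the members, list genes past 2-fold or unlike the members in direction (of which examples are given), and the 5 genes nearest to the MCM subunits. Other list genes, markers and genomic neighbors were named after their values were seen. Also tried were 14 alternative settings. Python 3.11.15, numpy 2.4.6, pandas 2.3.3, matplotlib 3.10.9, R 4.3.3 and limma 3.58.1 (for normexp) were used, and the counting step was tested on simulated data.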

Additional observations from a re-analysis of the deposited data

How the results depend on the processing

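Against MSCs, no log2 ratio of a licensing gene changed sign in 13 alternative settings, and each was at least 2-fold in all of them except that of Mcm7 in MFH1NR, which was so in 3. The median log2 ratio of the 8 genes in COS1NR over MSCs, 2.15, moved by more than the spot spread of 0.072 to 2.54 without scaling, 2.31 with median scaling, 1.88 with spike-in scaling and 2.00 with scaling by reference genes. That in MFH1NR over MSCs, 2.39, moved to 3.14, 2.60 and 2.90 with the first 3 of these, to 2.47 with quantile normalization, 2.27 with the mean of all probes, 2.19 with the second probe and 2.12 with normexp. That of MFH1NR over COS1NR, -0.21, moved to 0.15 without scaling, -0.14 with quantile normalization, 0.58 with spike-in scaling and -0.13 with reference genes. With spike-in scaling, 2 genes (Mcm4 and Orc1) were 2-fold apart between the lines, where 43.4% of all genes were. Division by a constant moves all genes alike, and unscaled arrays put the all-gene median at 0.51 (COS1NR) and 0.77 (MFH1NR). Relative to it, the licensing medians were 2.04 and 2.38, and -0.10 between the lines, under no, median, spike-in and reference scaling alike. Of all genes, 1226 were 2-fold higher and 1465 lower in both lines, against 2460 and 1041 without scaling, 960 and 696 with genes well above background on all arrays, 555 and 1046 at 3-fold, and 732 higher with normexp. Beside these, the share higher in COS1NR moved from 21.7% to 32.9% without scaling, 14.3% with normexp and 11.1% at 3-fold, that in MFH1NR from 20.8% to 41.6% without scaling, 34.2% with spike-in scaling and 11.7% at 3-fold, and the share 3-fold apart between the lines was 18.7%. The spike-in, reference gene, normexp and background-limit settings were chosen after seeing the data, and normexp on the mean spot signal was not run, since the median signal was used. No paired analysis was possible because each group has 1 array.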

Other observations

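Beside the 7 of 7 licensing genes, E2F-type matches were in 12 of the 39 windows (30.8%) of the 7 other replication lists, among them Mcm8, Orc5, Pola1, Pole, Pole2 and Rfc3, but also Orc3, E2f3 and Lig1, which were under 2-fold in both lines. Of the 6 windows of proliferation markers, 1 held a match (16.7%), although all 6 markers were at least 2-fold higher in both lines. Among genes outside the licensing list, a match was in 7.63% of the 983 windows of those at least 2-fold higher in both lines and in 3.40% of the 7180 windows of the others. CCAAT, found in 71.4% of the licensing windows, was in 53.8% of the 39 windows of the other replication lists. It was in 66.7% of the 6 windows of proliferation markers. These are shares with no test.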
